A study of Mus musculus with 10 samples.

Results

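The interferon response genes examined here were 41 genes that cells switch on when they sense interferon, among them transcription factors, nucleic acid sensors and antiviral effectors. They were taken from a list of gene symbols, and a member was measured where the platform annotation gave its symbol alone to a probe set. This held for 39 of the 41 genes, with 61 probe sets, among 18193 genes in all. Isg15 shares its probe set with another symbol, and Ifi44 was not analysed here. For every gene the brightest probe set on average over the 10 arrays was used, and 37 of the 39 lay at or above the median of all probe sets.

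The cells were mouse haematopoietic stem and progenitor cells (LSK cells, which lack lineage markers and carry Sca1 and c-kit) with HOXB4, a homeodomain protein known to make such cells multiply, on a retroviral vector with GFP. HOXB4-ER carries an oestrogen receptor domain and is active only with 4-hydroxytamoxifen (TMX), so that taking TMX away switches it off. In HOXB4const the protein has no such domain and is always active. All cells, controls included, carried one of the transgenes and had grown for 14 days under 10 nM TMX in serum-free medium with stem cell factor, FLT3 ligand, interleukin 11 and interleukin 3, and were then sorted and kept with TMX for 12 h more. The 10 arrays form 5 groups of 2. HOXB4-ER cells lacked TMX for 1 h or for 4 h, or kept it for 1 h, and HOXB4const cells lacked or kept it for 1 h. A 4 h group of HOXB4-ER cells that kept TMX was not analysed here. Replicates are numbered 1 and 2 in every group and called biological. Since each population was divided between treatments, arrays of one construct and number may come from one culture, and p-values then measure only the spread between these arrays.

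Interferons act on cells through receptors and JAK kinases. A complex that holds STAT2 and IRF9 then binds the interferon-stimulated response element (ISRE), while interferon gamma also acts through the GAS element. In haematopoietic stem cells interferons are known to drive quiescent cells into division, and stem cells hold some interferon response genes at a high level without infection. Sca1, one of the markers used to sort these cells, is itself interferon-inducible.

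The promoter stretches shown are from a chosen set of members that hold this element. A promoter of 300 bases, 250 before and 50 after the RefSeq start (GRCm38.p6), was matched for 30 of the 39 measured members. The ISRE core, which is GAAA, any 2 bases and GAAA again, or TTTC, any 2 bases and TTTC on the other strand, was found in 17 of these 30 genes, against 3.99% of all 27025 genes with a promoter in the table. It was not found for Irf1, Irf7, Irf9, Trim25, Oasl1, Oasl2, Ifit2, Ifitm1, Isg20, Ifi35, Xaf1, Samd9l and Tap1. The GAS core TTCNNNGAA, which reads the same on both strands, was in 9 of 30, against 9.55% of genes. Overlapping matches were counted. The stretches below hold the matches before the start with 20 bases to each side where the start allows, on the strand of the gene, and the capitals mark the ISRE cores. Ifit3 and Ifit1 encode proteins that bind foreign RNA, Cxcl10 a chemokine for T cells, Bst2 tetherin, which holds virus particles at the cell surface, Rsad2 the antiviral enzyme viperin, Oas1a an oligoadenylate synthetase, Gbp2 a guanylate-binding protein and Irgm1 an immunity-related GTPase.
Ifit3, chr19:34583353-34583436, plus strand, cores at −156 and −122 from the start: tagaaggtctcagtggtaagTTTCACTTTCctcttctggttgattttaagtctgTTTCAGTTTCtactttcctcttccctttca
Ifit1, chr19:34640765-34640833, plus strand, cores at −104 and −85: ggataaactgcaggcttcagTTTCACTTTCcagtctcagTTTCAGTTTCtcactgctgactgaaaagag
Cxcl10, chr5:92349073-92349122, minus strand, core at −213: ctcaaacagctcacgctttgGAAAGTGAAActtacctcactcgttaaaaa
Bst2, chr8:71537567-71537622, minus strand, overlapping cores at −130 and −124: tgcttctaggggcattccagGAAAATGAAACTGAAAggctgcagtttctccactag
Rsad2, chr12:26456543-26456592, minus strand, core at −120: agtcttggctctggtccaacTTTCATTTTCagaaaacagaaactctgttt
Oas1a, chr5:120907526-120907565, minus strand, overlapping cores at −20 and −14: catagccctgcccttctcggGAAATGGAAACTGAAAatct
Gbp2, chr3:142620584-142620633, plus strand, core at −59: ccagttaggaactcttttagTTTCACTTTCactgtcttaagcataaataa
Irgm1, chr11:48871421-48871470, minus strand, overlapping cores at −30 and −24: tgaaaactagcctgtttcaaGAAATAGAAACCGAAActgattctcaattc
A match is a description of the letters and not a measured binding site.

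All values are log2 array signals as deposited, and differences between groups are differences on that scale. The array medians lay between 3.96 and 5.32, the highest on the HOXB4const without TMX replicate 1 array, which stood apart with 0.0155% of its values below 0, against 0.378% to 8.17% on the other arrays. Of the 10 stem and progenitor markers measured, none lay below a mean level of 2.66, the 25th percentile of all probe sets. The same held for the monocyte, dendritic, granulocyte, mast cell, and erythroid and megakaryocyte markers used below. Of the 8 lymphoid and the 8 stromal markers, 1 each lay below it. This level therefore does not tell cell types apart. Ifitm1 and Ifitm3, which encode membrane proteins that block virus entry, lay at the 99.6th and 99.3rd percentile of all probe sets. Of the remaining members only Cxcl10 (43.9th percentile) and Mx2 (12.5th percentile) lay below the median. Brightness depends on the probes, so levels are not compared between genes.

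**Figure D1:**
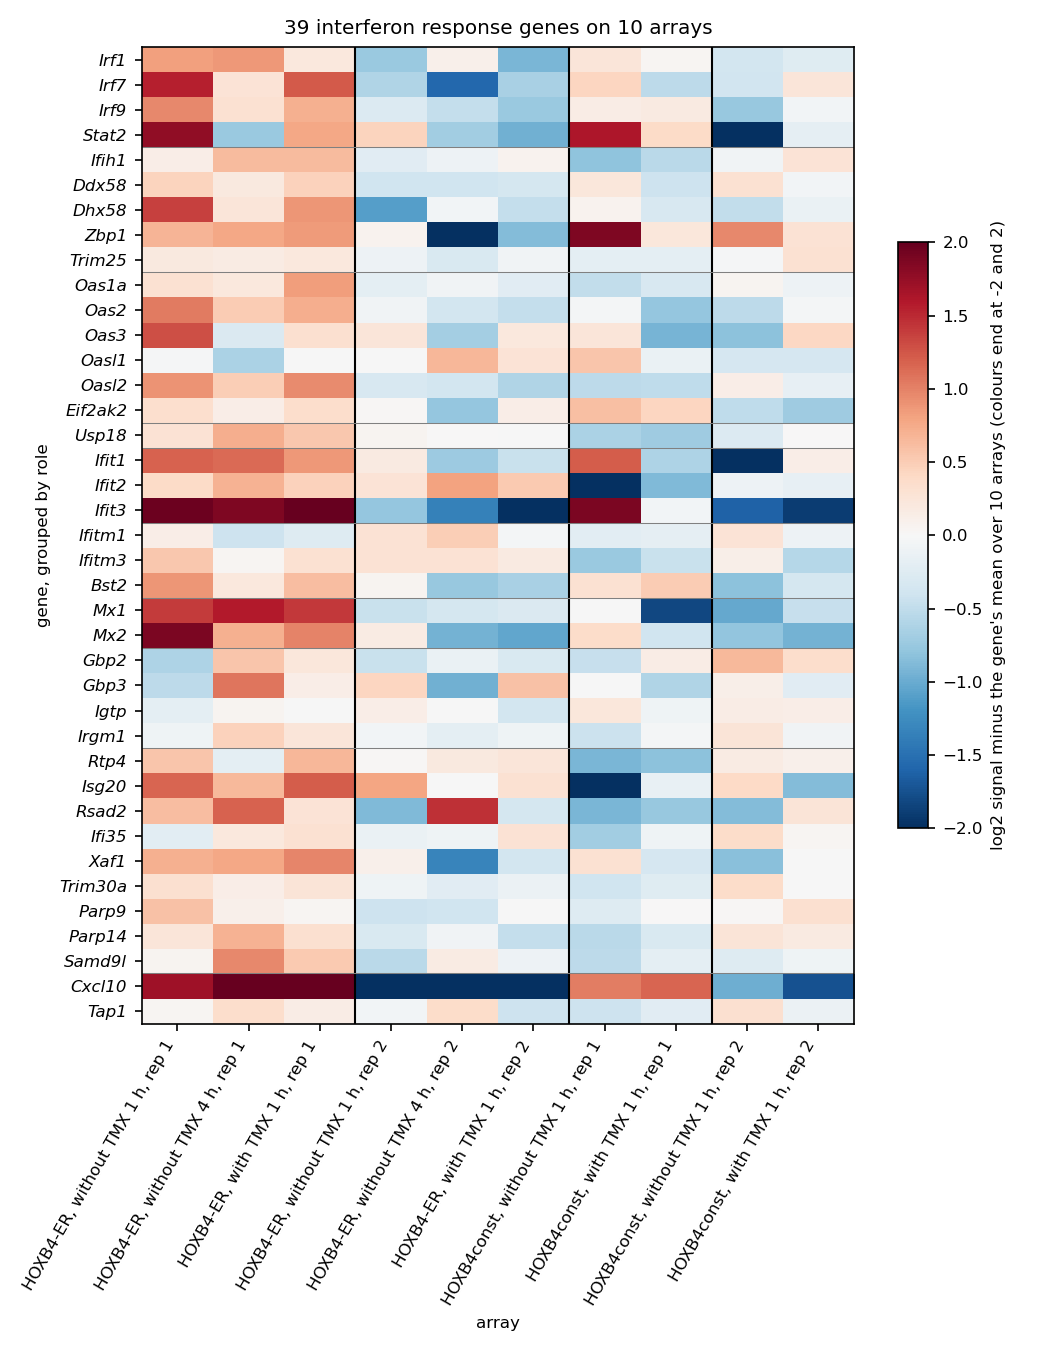
Heat map of the 39 measured interferon response genes (down, grouped by role) on the 10 arrays (across), as the log2 signal minus the gene's mean over the 10 arrays, with colours ending at −2 and 2. The 3 HOXB4-ER replicate 1 arrays at the left have the most red cells: 33, 34 and 36 of the 39 genes lay above their mean there.

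The first question was whether switching HOXB4 off touches the interferon response. After 1 h without TMX, 21 of the 39 genes were above and 18 below their level in HOXB4-ER cells with TMX, with a median difference of 0.05. Over all genes 55.2% were above 0, with a median of 0.07. No member passed limma's test (adjusted p under 0.05, 0.00% of 45037 probe sets), and none had an unadjusted p under 0.05, against 3.53% of all genes. The 95% confidence interval of a difference reached 1.47 to either side in the median of the 37 brighter members. It reached 1.34 with a replicate block and 1.08 with a replicate block for each construct, a fit added after the data were seen, so a shift under about that size in a single gene could go unseen. In these fits, too, 0 members passed, and 0 and 1 (Mx2, with higher values) had an unadjusted p under 0.05, against 4.01% and 3.9% of all genes.

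Few genes separated the arrays at 1 h. Ifitm1 was at 12.5 and 12.7 without TMX, against 12.1 and 12.3 with TMX, a difference of 0.36 ± 0.48 (standard error), and with each array centred on its median that difference was −0.027. Ifi35, which encodes an interferon-induced leucine zipper protein, was at 9.53 and 9.61 without TMX, against 10.0 on both arrays with TMX (−0.46 ± 0.48). A further Ifi35 probe set above the median level gave 0.51 ± 0.59, and the mean of its 3 probe sets −0.067. Gbp2 gave −0.50 ± 0.54 and Ifit2, an RNA-binding relative of Ifit1 that promotes cell death, gave −0.16 ± 0.66. In all, the arrays did not overlap for 1 member with higher and 3 with lower values, or 2.56% and 7.69% of 39, against 19.4% and 11.2% of all genes. Among the 14 members with several probe sets, 10 of the 22 further probe sets had the direction of the brightest, and 6 of the 14 at or above the median level.

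After 4 h without TMX the picture was similar for the set as a whole. Here 14 members were above and 25 below the arrays with TMX, which were of 1 h, so time in culture and withdrawal cannot be told apart. The median was −0.10, against 0.02 over all genes, of which 51.7% were above 0. Its sign hung on single arrays: it was −0.42 and 0.29 without the 4 h replicates 1 and 2, and 0.25 and −0.56 without replicates 1 and 2 of the cells with TMX. Again 0 members passed limma's test (0.00% of probe sets) and 0 had an unadjusted p under 0.05, against 2.63% of all genes.

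Rsad2 gave the smallest p after 4 h. It was at 7.62 and 7.89 after 4 h without TMX, against 6.70 and 6.07 with TMX, a difference of 1.37 ± 0.64 (limma adjusted p = 1.00). Both arrays at 4 h were above every other array of the series for this gene, and the highest of the others was 7.04. Its level after 1 h without TMX was 7.04 and 5.54, so that the 4 h minus 1 h difference was 1.46 ± 0.64 (limma adjusted p = 0.888). That second difference was 2.21 and 0.71 without replicates 1 and 2 of the 1 h cells. The further Rsad2 probe sets, both above the median level, gave 0.24 ± 0.79 and 0.69 ± 0.95 at 4 h, and −0.75 ± 0.79 and 0.52 ± 0.95 for 4 h minus 1 h. With the mean of its 3 probe sets the differences were 0.77 and 0.41. In HOXB4const cells it was at 5.51 and 5.57 without TMX, against 5.67 and 6.69 with TMX, and there the difference was −0.64 ± 0.64.

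Other genes that separated the arrays at 4 h differed by less. Tap1, a subunit of the peptide transporter for antigen presentation, was at 9.24 and 9.25 after 4 h, against 9.04 and 8.47 with TMX (0.49 ± 0.46). The GTPase gene Igtp gave 0.21 ± 0.41. Oas3, a synthetase whose product activates RNase L, was at 6.36 and 5.96 after 4 h, against 6.97 and 6.87 with TMX (−0.76 ± 0.66). Rtp4, which encodes a receptor transporter protein, gave −0.44 ± 0.57 and Ifi35 −0.22 ± 0.48. The arrays did not overlap for 4 members with higher and 3 with lower values, against 15.9% and 13.8% of all genes. Of the 22 further probe sets 16 had the direction of the brightest, and 11 of the 14 brighter ones. Irf7, the master regulator of interferon alpha genes, is named after its values were seen. It was at 6.40 and 4.55 after 4 h, against 7.36 and 5.48 with TMX, so that the arrays overlapped but each replicate number had the lower value at 4 h. The difference was −0.94 ± 1.02, with a standard error of 0.77 with a replicate block and 0.50 with one for each construct, and limma's adjusted p was 1.00 in all 3 fits.

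Between 4 h and 1 h without TMX, 17 members were higher and 22 lower at 4 h, with a median of −0.13. Over all genes 46.5% were above 0. The comparison shares its arrays with those above. The named genes with higher values at 4 h were Rsad2, Samd9l, an inhibitor of translation and growth (0.81 ± 0.50), and Gbp2 (0.74 ± 0.54). Those with lower values were Oas3 (−1.25 ± 0.66), the signal transducer gene Stat2 (−1.83 ± 1.28) and Isg20, which encodes an RNA exonuclease (−0.66 ± 1.15). Arrays did not overlap for 6 members with higher and 3 with lower values, against 15.2% and 21.2% of all genes, and 0 members passed limma's test (0.00% of probe sets) or had an unadjusted p under 0.05, against 4.40% of all genes. With a replicate block 0 members had an unadjusted p under 0.05, against 5.44% of all genes. With a block for each construct 1 had one (Mx2, with lower values), against 4.96%. Of the 22 further probe sets 13 had the direction of the brightest.

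HOXB4const cells served to show effects of TMX that do not need the fusion protein. Without TMX, 19 members were higher and 20 lower than with TMX, with a median of −0.01, and over all genes 52.1% were above 0. The genes with the smallest p whose arrays did not overlap were Ddx58, the gene of the RNA sensor RIG-I (0.50 ± 0.52), the nucleic acid sensor gene Zbp1 (1.15 ± 1.62), Gbp3 (0.48 ± 0.72), Rsad2 and Samd9l (−0.25 ± 0.50). The arrays did not overlap for 4 members with higher and 2 with lower values, against 14.0% and 9.92% of all genes, and 17 of the 22 further probe sets had the direction of the brightest. The difference between the constructs in their response to 1 h without TMX had a median of −0.01 over the members, with 18 above 0, against 51.2% of all genes. The members with the smallest p were Stat2 (1.70 ± 1.81), Isg20 (1.25 ± 1.62) and Bst2 (0.81 ± 1.01) above 0, and below 0 Gbp3 (−0.87 ± 1.02), Ddx58 (−0.53 ± 0.74) and Oasl1 (−0.49 ± 0.81). Without 1 HOXB4const without TMX array the sign turned for Stat2 (−0.32 without replicate 2) and Isg20 (−0.69 without replicate 1). No member passed limma's test in either comparison (0.00% of probe sets in both) or had an unadjusted p under 0.05, against 3.66% and 3.05% of all genes.

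**Figure D2:**
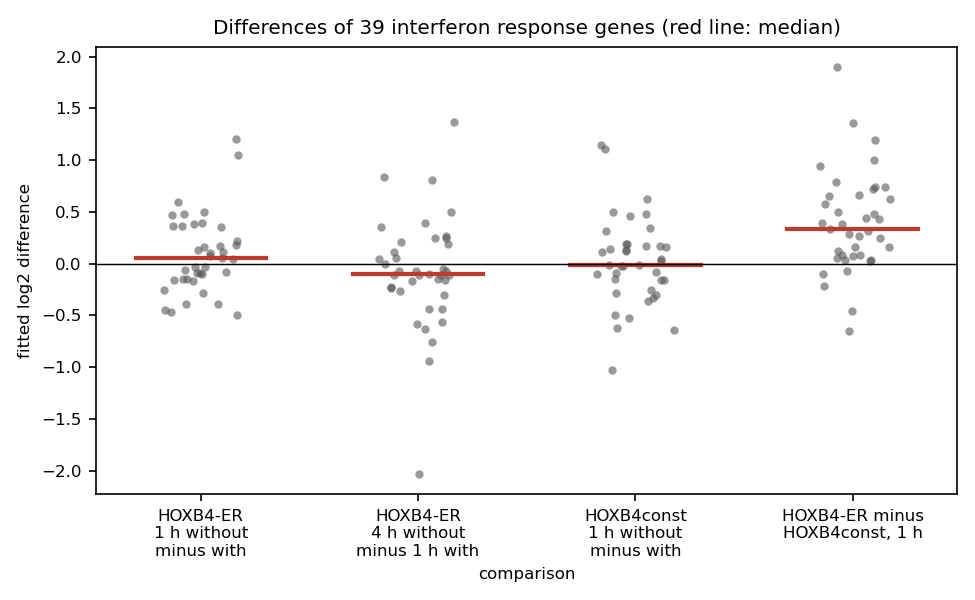
Fitted log2 differences of the 39 interferon response genes (points, spread sideways for visibility) in 4 comparisons, with the median as a red line. The medians were 0.05 and −0.10 for HOXB4-ER after 1 h and 4 h without TMX, −0.01 for HOXB4const, and 0.34 for HOXB4-ER minus HOXB4const at 1 h.

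Between the constructs most members leaned one way. Over the 1 h arrays, with and without TMX together, 34 of the 39 members were higher in HOXB4-ER than in HOXB4const cells, with a median difference of 0.34. Of all genes 41.6% were higher in HOXB4-ER cells (median −0.09), and of the genes at or above the median level 50.3%. No member passed limma's test (0.00% of probe sets, smallest adjusted p among the members 0.634), and 1 had an unadjusted p under 0.05, against 1.00% of all genes with higher and 5.54% with lower values. With a replicate block 3 members had one (Ifit2, Ifitm3 and Mx2), and with a replicate block for each construct also 3 (Ifit2, Mx1 and Mx2), all with higher values in HOXB4-ER cells. In these 2 fits 7.37% and 7.15% of all genes had one, in either direction, so these counts lie near the share over all genes. The median was 0.12 and 0.13 without HOXB4-ER replicate 1 without and with TMX, 0.53 and 0.64 without HOXB4-ER replicate 2 without and with TMX, and 0.24 to 0.40 without any one HOXB4const array. Among the 14 members with several probe sets, 9 of the 22 further probe sets had the same direction as the brightest, and 9 of the 14 of these that lay at or above the median level.

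Ifit2 gave the smallest p of this comparison. It was at 7.01, 6.89, 7.08 and 7.15 on the HOXB4-ER arrays, against 4.64, 6.52, 5.74 and 6.47 on the HOXB4const arrays, a difference of 1.19 ± 0.46 (limma adjusted p = 0.634). The groups did not overlap, the HOXB4-ER arrays lay close together, and the HOXB4const replicate 1 arrays were the lowest. Ifitm3 was at 12.4, 12.1, 12.1 and 12.0 in HOXB4-ER cells, against 11.1, 11.9, 11.4 and 11.3 in HOXB4const cells (0.74 ± 0.32, adjusted p = 0.674). These were the 2 members without overlap, both with higher values, against 1.35% of all genes with higher and 3.18% with lower values. Isg20 differed by 1.90 ± 0.81 and Mx1, a GTPase that blocks viral replication, by 1.35 ± 0.72, with overlapping arrays. For Mx1 the HOXB4const arrays were at 2.55 to 4.36, near or below the median of all probe sets, 4.05. For Isg20 the HOXB4const without TMX replicate 1 array was at 2.38, against 4.98 to 6.25 on the other HOXB4const arrays.

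Within replicate number 1, HOXB4-ER was above HOXB4const in 37 of 39 members with TMX and in 32 without TMX, with median differences of 0.75 and 0.66. Within replicate number 2 the counts were 10 with TMX and 18 without, with medians of −0.29 and −0.03. Over all genes the medians of these pairs were −0.01 and −0.14 in replicate 1, and −0.21 and −0.04 in replicate 2. Both replicate 1 pairs pointed up for 31 of 39 members, against 23.9% of all genes, and both replicate 2 pairs for 8 of 39, against 19.9%. In 4 of 4 pairs HOXB4-ER was above for 4 members, Ifit2, Ifitm3, Mx1 and Isg20, against 5.63% of all genes. Among the brighter genes, to which 37 of the members belong, these shares were 29.3%, 23.9% and 7.60%. The excess of members above 0 in the replicate 1 pairs was not seen in the replicate 2 pairs.

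The replicate numbers were therefore compared within groups, first over all 5 groups and then, by a comparison chosen after the values were seen, within each construct. Over all groups 29 of 39 members were higher on the replicate 1 than on the replicate 2 arrays, with a median of 0.22, which turned to −0.11 with each array centred on its median. Of all genes 52.2% and of the brighter genes 46.3% were higher. Of the 22 further probe sets 15 had the direction of the brightest, but only 8 of the 14 at or above the median level. No member passed limma's test (0.00% of probe sets, smallest adjusted p 0.144), while 9 members with higher and 0 with lower values had an unadjusted p under 0.05, against 7.57% and 4.49% of all genes. Arrays did not overlap for 5 members, all with higher values on replicate 1, against 3.11% of all genes with higher and 4.81% with lower values. With log2 of the signal plus 16, in which dim signals are compressed, 3 members passed (Ifit3, Bst2 and Cxcl10), and with a variance trend in limma 6 passed, as Irf1, Irf9 and Eif2ak2 joined them. These settings called 2.33% and 6.01% of all probe sets.

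Ifit3 gave the smallest p among the members. It was at 6.66, 6.57 and 6.71 on the HOXB4-ER replicate 1 arrays, against 3.93, 3.35 and 2.69 on the HOXB4-ER replicate 2 arrays (without TMX 1 h, without TMX 4 h and with TMX). The HOXB4const arrays were at 6.58 and 4.66 on replicate 1, against 3.08 and 2.80 on replicate 2 (without and with TMX). Every replicate 1 array lay above every replicate 2 array, and the difference was 3.07 ± 0.37 (limma adjusted p = 0.144). All replicate 2 levels lay below the median of all probe sets, 4.05. With log2 of the signal plus 16 the difference was 1.89, so its size is not firm.

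Bst2 was at 8.62, 7.95 and 8.37 on the HOXB4-ER replicate 1 arrays, against 7.80, 6.98 and 7.09 on replicate 2. The HOXB4const values were 8.05 and 8.24 on replicate 1, against 6.93 and 7.40 on replicate 2. The groups did not overlap (1.01 ± 0.22, limma adjusted p = 0.193). Irf9, the DNA-binding partner of STAT2, had the same order without overlap (0.92 ± 0.27, adjusted p = 0.268).

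Cxcl10, whose probe set was dimmer than the median and which is named after its values were seen, had the largest difference. It was at 5.38, 7.49 and 6.12 on the HOXB4-ER replicate 1 arrays, against 1.25, 1.32 and 1.08 on replicate 2, and at 4.72 and 4.85 against 2.71 and 1.95 in HOXB4const cells. The replicate 2 levels in HOXB4-ER cells lay under 2.66, near the floor of the arrays, and the fitted 4.05 ± 0.65 therefore has no firm size. Mx2, dim as well, gave 1.42 ± 0.30.

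**Figure D3:**
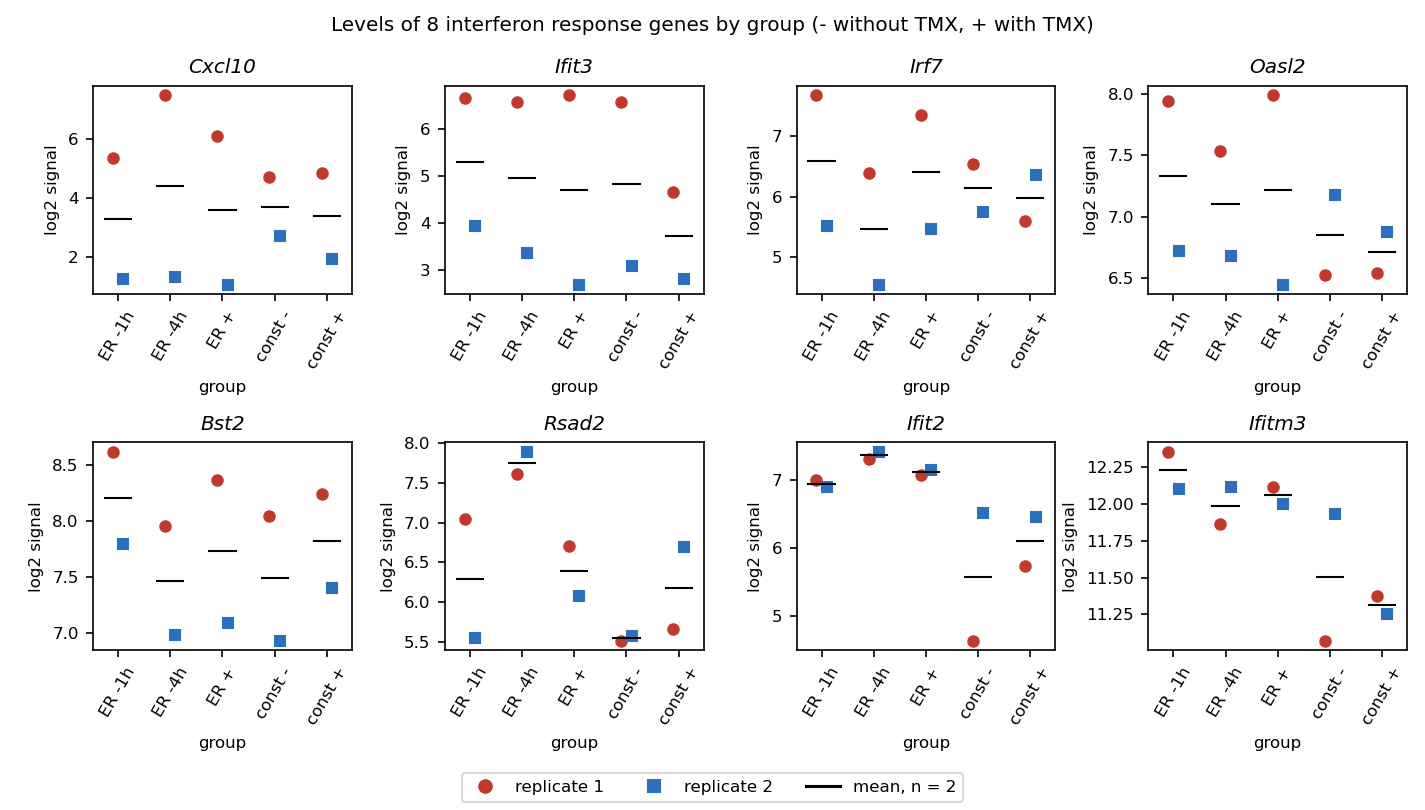
Log2 signals of 8 interferon response genes by group, with HOXB4-ER (ER) and HOXB4const (const), without TMX (−) for 1 h or 4 h and with TMX (+) for 1 h. Circles are replicate 1, squares replicate 2 and bars the mean of the 2. Cxcl10, Ifit3 and Bst2 were higher on replicate 1 in all 5 groups, Irf7 and Oasl2 in the 3 HOXB4-ER groups, and Ifit2 and Rsad2 did not show that order in every HOXB4-ER group.

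The 2 constructs were then taken apart. In HOXB4-ER cells the median difference between replicate 1 and replicate 2 was 0.62, with 36 of 39 members higher on replicate 1, against 51.3% of all genes and 46.2% of the brighter ones. In each of the 3 groups the median was close to this, at 0.59 and 0.68 after 1 h and 4 h without TMX and 0.63 with TMX. In 26 of 39 members replicate 1 was above replicate 2 in 3 of 3 HOXB4-ER groups, against 21.3% of all genes and 22.6% of the brighter ones. In 23 of 39 all 3 replicate 1 arrays lay above all 3 replicate 2 arrays, against 10.9% of all genes, and 1 member, Oasl1, had the opposite order, also against 10.9%. An unadjusted p under 0.05 was found for 12 members, all with higher values, against 5.83% of all genes with higher and 1.78% with lower values, and 0 passed after adjustment (0.00% of probe sets, smallest adjusted p 0.160).

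In HOXB4const cells the median difference was −0.22, with 14 of 39 members higher on replicate 1, against 50.2% of all genes and 45.1% of the brighter ones. Replicate 1 was above replicate 2 in both groups for 9 members and below in both for 18, against 24.7% and 26.2% of all genes and 25.3% and 32.8% of the brighter ones. Arrays did not overlap for 9 members with higher and 14 with lower values, against 18.7% and 21.0% of all genes. The groups had medians of −0.09 without TMX and −0.22 with TMX, where all genes had 0.28 and −0.20. An unadjusted p under 0.05 was found for 4 members with higher and 1 with lower values, against 4.51% and 1.93% of all genes, and 0 passed after adjustment (0.00% of probe sets).

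The replicate difference in HOXB4-ER cells minus that in HOXB4const cells was above 0 for 34 of 39 members, with a median of 0.89, against 52.9% of all genes, with a median of 0.05, and 54.1% of the brighter ones. No member passed limma's test of this difference (0.00% of probe sets, smallest adjusted p 0.993). An unadjusted p under 0.05 was found for 5 members, all above 0, against 2.43% of all genes above and 1.61% below 0. For 10 members replicate 1 was above in 3 of 3 HOXB4-ER groups and below in 2 of 2 HOXB4const groups, against 2.49% of all genes and 2.51% of the brighter ones. They were Ifih1, Ddx58, Trim25, Oas1a, Oasl2, Usp18, Trim30a, Parp9, Parp14 and Samd9l. In HOXB4const cells, however, further probe sets were higher on replicate 1 for Ddx58 (1.27 ± 0.66 and 0.77 ± 0.36), Trim30a (0.83 ± 0.42) and Parp14 (0.76 ± 1.01). The further Trim25 probe sets gave 0.36 ± 0.37 and −1.06 ± 0.45 there. The reversed order in HOXB4const cells is therefore not firm for these genes. The interval of a single member's difference reached 1.40 to either side in the median, so single genes could not be told apart between the constructs at this number of arrays.

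Oasl2, an OAS-like protein gene, gave the smallest p of this difference. It was at 7.95, 7.53 and 7.99 on the HOXB4-ER replicate 1 arrays, against 6.72, 6.68 and 6.45 on replicate 2. In HOXB4const cells it was at 6.53 and 6.54 on replicate 1, against 7.18 and 6.88 on replicate 2. The HOXB4-ER replicate 1 arrays were the 3 highest of the series, and the HOXB4const arrays ran the other way (difference of differences 1.70 ± 0.50, limma adjusted p = 0.993).

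Irf7 was at 7.68, 6.40 and 7.36 on the HOXB4-ER replicate 1 arrays, against 5.52, 4.55 and 5.48 on replicate 2. For HOXB4const its level was 6.55 and 5.61 on replicate 1, against 5.75 and 6.36 on replicate 2, with no common order (1.94 ± 0.65). The value was 2.71 without either HOXB4const without TMX array and 1.16 without either HOXB4const with TMX array. Ifih1, the gene of the RNA sensor MDA5, was at 8.12, 8.62 and 8.61 on the HOXB4-ER replicate 1 arrays, against 7.75, 7.89 and 8.05 on replicate 2. Its HOXB4const levels were 7.17 and 7.44 on replicate 1, against 7.92 and 8.26 on replicate 2, so that the order was turned (1.34 ± 0.46).

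In the other direction the named genes were Oasl1, which limits translation of Irf7 (−1.09 ± 0.63), Eif2ak2, the gene of the RNA-activated kinase PKR (−0.65 ± 0.50, and 0.42 with the mean of its 3 probe sets), and Stat2 (−1.29 ± 1.26). Stat2 rested on 1 pair of arrays: without either HOXB4const without TMX array, where replicates 1 and 2 were at 6.59 and 2.54, the value was 0.46.

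**Figure D4:**
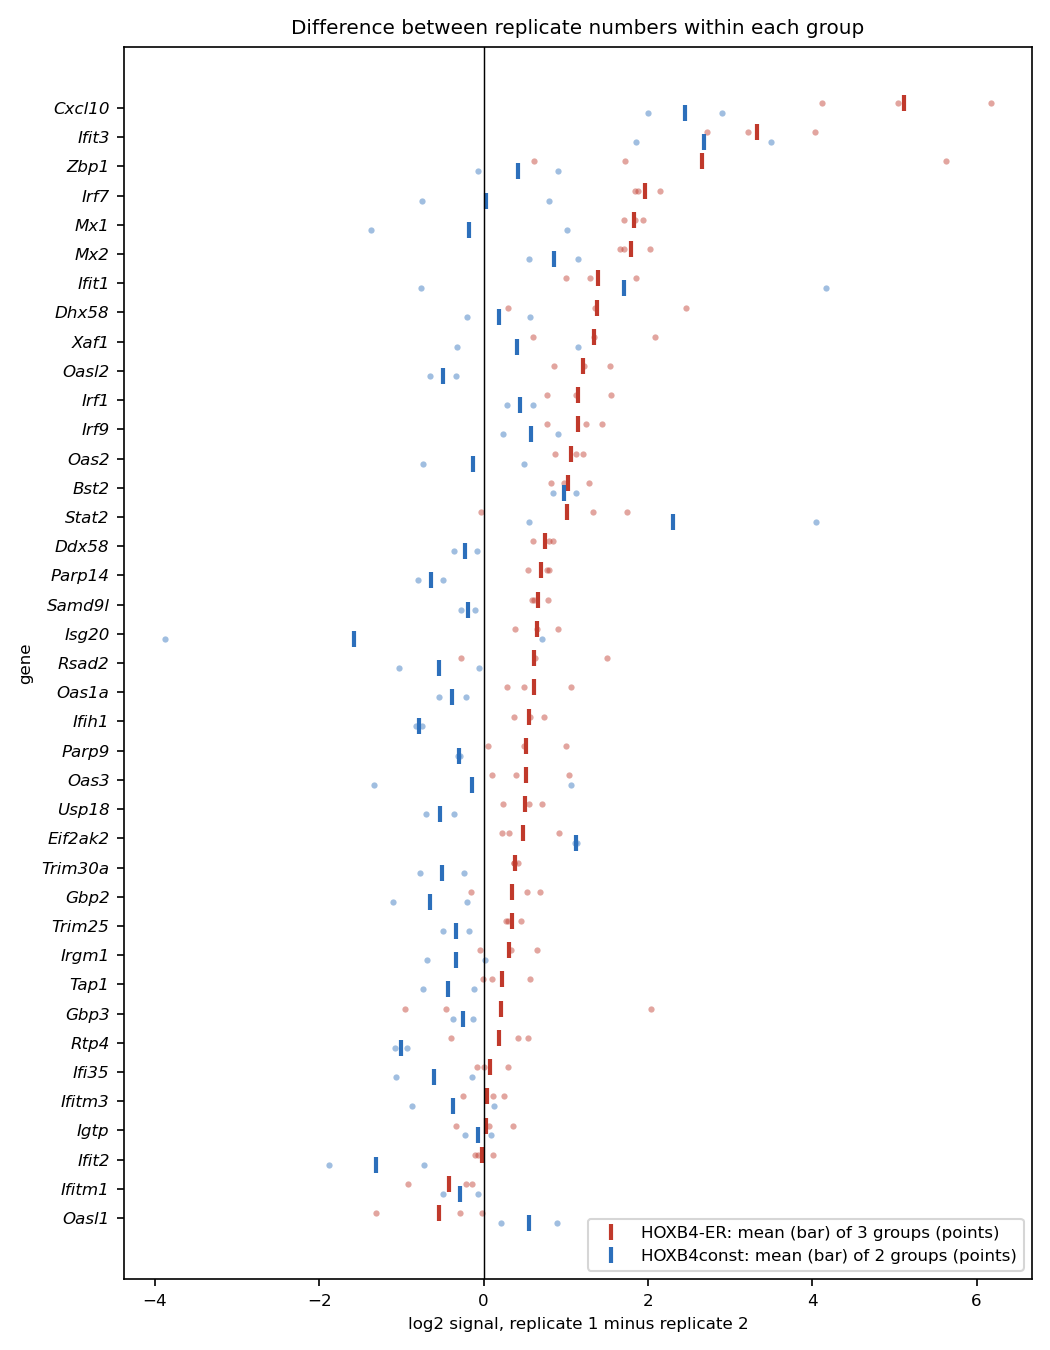
Log2 signal of replicate 1 minus replicate 2 for each of the 39 interferon response genes (down, ordered by the HOXB4-ER mean), with HOXB4-ER in red (3 groups as points, mean as a bar) above HOXB4const in blue (2 groups). The HOXB4-ER mean was above 0 for 36 genes and the HOXB4const mean for 14.

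By role, the transcription factors Irf1, Irf7, Irf9 and Stat2 had a median replicate difference of 1.15 in HOXB4-ER cells, against 0.51 in HOXB4const cells. Irf1, which carries interferon gamma signals to its target genes, was at 9.10, 9.16 and 8.50 on the HOXB4-ER replicate 1 arrays, against 7.55, 8.38 and 7.37 on replicate 2. All 5 sensors and their regulators (Ifih1, Ddx58, Dhx58, Zbp1 and the ubiquitin ligase gene Trim25) were higher on replicate 1 in each HOXB4-ER group, with a median of 0.75, against −0.22 in HOXB4const cells. For Zbp1 the HOXB4-ER 4 h replicate 2 array, at −0.47, made up much of the difference.

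Among the OAS genes and PKR, 5 of 6 were higher on replicate 1 in each HOXB4-ER group and Oasl1 was lower. Usp18, the protease that removes ISG15 and dampens the interferon receptor, was at 6.99, 7.42 and 7.23 on the HOXB4-ER replicate 1 arrays, against 6.75, 6.70 and 6.68 on replicate 2. Both Mx genes were higher on replicate 1 in each HOXB4-ER group. Mx1 was at 5.77, 5.96 and 5.79 on replicate 1, against 3.93, 4.02 and 4.09 on replicate 2, and its HOXB4const arrays, at 4.36 and 2.55 against 3.35 and 3.91, had no common order. Outside HOXB4-ER replicate 1 its levels lay near or below the median of all probe sets, 4.05, so the size of its differences is not firm.

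The families split internally. Of the IFIT genes Ifit1 and Ifit3 were higher on replicate 1 in each HOXB4-ER group, while Ifit2 differed by 0.11, −0.10 and −0.07 in them. Of the membrane restriction factors Bst2 was higher, Ifitm1 was lower in each HOXB4-ER group (by −0.14, −0.91 and −0.21) and Ifitm3 had a mean difference of 0.04. None of the 4 interferon-inducible GTPase genes Gbp2, Gbp3, Igtp and Irgm1 was higher on replicate 1 in every HOXB4-ER group, and their median there was 0.26. Of the 9 other antiviral genes 6 were, among them Xaf1, a pro-apoptotic gene, with a mean difference of 1.35, and the ADP-ribosyltransferase gene Parp14, with 0.70. The further Xaf1 probe set, above the median level, gave −0.14 ± 0.88, and the further Parp14 probe set, below it, 2.51 ± 0.82. Of the members with a promoter, the ISRE core was in 10 of the 18 that were higher on replicate 1 in 3 of 3 HOXB4-ER groups and in 7 of the other 12.

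Among the 14 members with several probe sets, 18 of 22 further probe sets had the direction of the brightest in the HOXB4-ER replicate difference, and 12 of the 14 at or above the median level. In the HOXB4const replicate difference these counts were only 9 and 5, and in the difference between the constructs 18 and 10. The probe sets of Oas1a, Ifit3 and Trim30a can read close relatives in their families, so these signals may be shared.

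Markers of other blood cells differed between the same arrays, and their part in the interferon gene values was not tested. In bulk RNA, more cells of a type and more RNA per cell cannot be told apart. Of the 12 monocyte and macrophage markers, 11 were higher on replicate 1 in every HOXB4-ER group and 11 in both HOXB4const groups. Over all genes these shares were 21.3% and 24.7%, which also stand beside the dendritic marker counts below. Their summed linear signal was 15783 to 19472 on HOXB4-ER replicate 1, against 1556 to 1614 on HOXB4-ER replicate 2 arrays. In HOXB4const cells it was 11367 to 12125 on replicate 1, against 2636 to 2687 on replicate 2. The colony-stimulating factor receptor gene Csf1r, for example, was at 11.1, 11.4 and 11.3 on HOXB4-ER replicate 1, against 6.80, 7.34 and 7.02 on replicate 2, and at 10.4 and 10.5 against 8.56 and 8.30 in HOXB4const cells.

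Dendritic markers were highest on the HOXB4-ER replicate 1 arrays. Of the 11 measured, 8 were higher on replicate 1 in every HOXB4-ER group and 5 in both HOXB4const groups. Their summed signal was 5043 to 6000 on HOXB4-ER replicate 1, against 839 to 898 on replicate 2, and 1240 to 1384 on HOXB4const replicate 1, against 925 to 1011 on replicate 2. The MHC class II gene H2-Aa was at 10.3, 10.4 and 10.0 on HOXB4-ER replicate 1, against 4.99, 3.14 and 2.77 on replicate 2, and at 4.78 and 5.27 against 4.40 and 3.43 in HOXB4const cells. Siglech, a marker of plasmacytoid dendritic cells, was at 5.90, 5.29 and 5.13 on HOXB4-ER replicate 1, against 4.27, 4.51 and 3.27 on replicate 2. A single marker does not show that such cells were present.

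Of the 10 granulocyte markers, 5 were higher on replicate 1 in every HOXB4-ER group and 3 in both HOXB4const groups. The shares of all genes, 21.3% and 24.7%, apply here and to the marker counts that follow. Their median deviation was 1.70 to 2.10 on HOXB4-ER replicate 1 arrays, −0.99 to −0.27 on HOXB4-ER replicate 2, and between −1.11 and −0.50 on all HOXB4const arrays. Their summed signal overlapped, with 17695 to 21043 on HOXB4-ER replicate 1, against 13285 to 17928 on replicate 2, and at 4 h replicate 1 was the lower. It was 7347 to 8963 in HOXB4const cells. The stem and progenitor markers had a lower median deviation on the replicate 1 arrays (−0.38 to −0.09, against 0.03 to 0.44 on replicate 2). Of the 10 measured, 1 was higher on replicate 1 in every HOXB4-ER group and 3 in both HOXB4const groups. Their summed signals overlapped (5710 to 7104 on replicate 1, against 6489 to 8529 on replicate 2). In HOXB4const cells with TMX, replicate 1 was the higher (7104 against 6489). Lymphoid, mast cell, erythroid and megakaryocyte, and stromal markers were higher on replicate 1 in every HOXB4-ER group for 3 of 8, 3 of 8, 0 of 8 and 1 of 8. Mast cell markers had a median deviation of 0.21 to 0.37 on the 5 replicate 1 arrays, against −0.32 to −0.16 on the 5 replicate 2 arrays, while their summed signals overlapped (6125 to 9235 against 5720 to 9904). Erythroid and megakaryocyte markers summed to 1328 to 1440 on HOXB4-ER replicate 1, against 3183 to 4184 on HOXB4-ER replicate 2, and to 3898 to 6995 in HOXB4const cells. Lymphoid markers summed to 870 to 1040 on HOXB4-ER replicate 1, against 594 to 810 on replicate 2, and to 474 to 588 on HOXB4const replicate 1, against 246 to 412 on replicate 2. Stromal markers summed to 387 to 541 on HOXB4-ER replicate 1, against 406 to 483 on replicate 2, and to 698 to 755 on HOXB4const replicate 1, against 404 to 458 on replicate 2. For the Gapdh controls, whose signal gap between the 3′ and 5′ ends reads RNA integrity, that gap was 0.738 to 1.42 on replicate 1, against 1.48 to 3.98 on replicate 2 arrays. On the HOXB4-ER arrays it was 1.42 and 3.47 at 4 h, against 1.04 and 1.74 with TMX and 1.01 and 1.48 after 1 h without TMX (replicates 1 and 2). In HOXB4const cells it was 1.28 and 3.98 without TMX and 0.738 and 2.93 with TMX. Its part in the 4 h and replicate differences was not tested.

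**Figure D5:**
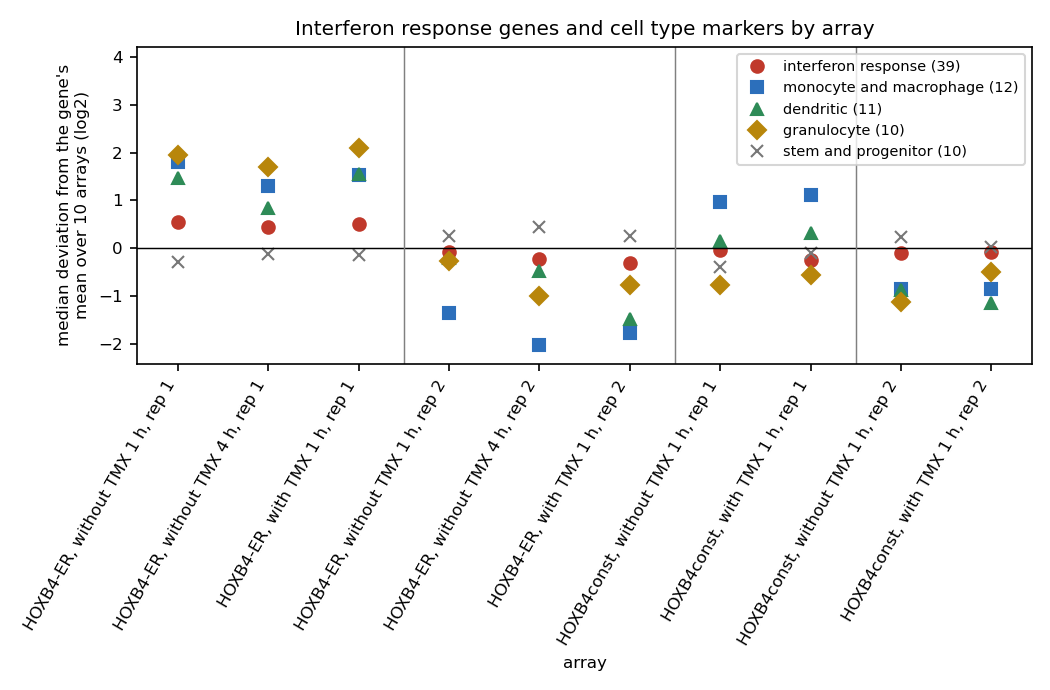
Median deviation from each gene's mean over the 10 arrays (log2) for the interferon response genes and for markers of 4 cell classes, by array, with the number of genes in brackets. The interferon genes lay at 0.45 to 0.56 on the 3 HOXB4-ER replicate 1 arrays and at −0.30 to −0.03 on the other 7, while monocyte markers were above 0 on all 5 replicate 1 arrays.

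Of 101 further genes of the interferon pathway, 88 were measured. None passed limma's test in any comparison (0.00% of probe sets). On withdrawal of TMX from HOXB4-ER cells their medians were 0.08 after 1 h and 0.02 after 4 h, and that for HOXB4const cells was −0.05. For HOXB4-ER minus HOXB4const at 1 h, 50 of 88 were above 0 with a median of 0.05, and the smallest p was that of Oas1b (1.90 ± 0.50). In the replicate comparison 58 of 88 were higher on replicate 1, with a median of 0.15, and 12 with higher and 4 with lower values had an unadjusted p under 0.05, against 7.57% and 4.49% of all genes.

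Among these further genes the smallest p in the replicate comparison belonged to Tlr7, Slfn2 and Irf8. Tlr7, an RNA sensor of endosomes, differed by 4.58 ± 0.49 (limma adjusted p = 0.134), Slfn2, a growth regulator, by 3.67 ± 0.47, and Irf8, which also serves here as a dendritic marker, by 3.07 ± 0.43. The difference was 5.30, 4.08 and 3.79 in HOXB4-ER and 3.49, 3.05 and 2.00 in HOXB4const cells for these 3 genes. For the difference between the constructs in the replicate effect, the smallest p was that of Ifi27l2a, an interferon-induced gene (3.43 ± 0.64, adjusted p = 0.993), with 56 of 88 above 0 and a median of 0.19, against 52.9% of all genes. On withdrawal after 4 h the genes with the smallest p were the chemokine gene Cxcl11 (2.76 ± 0.92), Ifna2 (2.18 ± 0.78) and Slfn8 (1.29 ± 0.53), of which only Slfn8 lay above the median level.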

How the data were processed

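Messenger RNA was measured on Affymetrix arrays after linear T7 amplification of 0.7 to 1 µg of RNA, per the labels' protocols. The deposited log2 signals have 1 value per probe set and array. GCOS and RMA are named, with no role, per the submitters' processing notes. The 2% trimmed mean of the linear signal was 100.0 on every array and values reached below 0, as for GCOS signals with global scaling, so the values were used without further normalization. Of 45101 probe sets, 64 controls were left out. Names came from the platform annotation (34945 probe sets with 1 symbol, 932 with several, 9160 not listed).

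The limma package (3.58.1, under R 4.3.3) fitted all 45037 probe sets and 10 arrays with 5 group means (and a replicate term for the replicate comparison), two-sided tests and Benjamini-Hochberg adjustment, called at an adjusted p under 0.05. The fit by construct has 3 residual degrees of freedom. Shares of all genes use 1 probe set per gene. The fits were tested on simulated data with large changes in 1 group, which says nothing of small ones. Members and lists were chosen with earlier results of these data known. Named genes are those past the threshold or, per comparison, up to 3 higher and 3 lower members at or above the median level with non-overlapping arrays and the smallest p, ranked on p alone for differences of differences, and the brightest of each role. No label or header used here explains the replicate numbers or names a scan batch.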

Additional observations from a re-analysis of the deposited data

How the results depend on the processing

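Alternatives were a replicate block, centring of arrays, quantile normalization, log2 of the signal plus 16, a filter on dim probe sets, a variance trend, the mean over all probe sets of a gene and leaving out each array. For the withdrawal comparisons, their interaction, the construct comparison and the replicate difference between constructs, 0 members passed under each of these. In the replicate comparison 0 members passed in the fit as reported, 2 without the group means (0.762% of probe sets called), 3 with log2(signal + 16) (2.33%), 2 among brighter probe sets (3.77%) and 6 with the variance trend (6.01%). Ifit3 gave 3.07, 1.89, 3.07 and 3.07 there, Bst2 passed under the last 3 (0.93, 1.01 and 1.01) and Irf9 under the trend (0.92). The filter on dim probe sets used the mean over all 10 arrays. The Ifit3 replicate 2 arrays, at 2.69 to 3.93, lay below its limit of 4.05, and Ifit3 met it only through replicate 1. Its pass under that filter is therefore no separate support. With replicate block the medians of the members were 0.05, −0.10, −0.13, −0.01, −0.01 and 0.34 for HOXB4-ER at 1 h, at 4 h, 4 h minus 1 h, HOXB4const, the interaction and the construct comparison, as in the balanced fit without it. A replicate block for each construct, added after the data were seen, called 0 members. Since each group holds both replicate numbers equally, neither block could move these medians, and their agreement is no separate support. Neither block moved a count of calls, and what the numbers pair is not stated. Same-numbered arrays deviated alike (correlation of the replicate differences 0.210 to 0.527 in 10 of 10 pairs of groups, over 22519 brighter probe sets, which share probes and amplification).

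Leaving out 1 array makes replicate numbers unequal, and the members' medians then ran from −0.31 to 0.40 for HOXB4-ER at 1 h, −0.56 to 0.29 at 4 h, −0.55 to 0.18 for 4 h minus 1 h, −0.12 to 0.12 for HOXB4const, −0.32 to 0.29 for the interaction, 0.12 (without HOXB4-ER without TMX replicate 1) to 0.64 (without HOXB4-ER with TMX replicate 2) for the construct, 0.15 to 0.43 for the replicate comparison and 0.82 to 0.89 for the replicate difference between constructs. Centring each array on its median gave −0.34, −0.07, 0.28, −0.32, −0.08, 0.72, −0.11 and 0.85 in the same order, so the sign of 3 medians (HOXB4-ER at 1 h, 4 h minus 1 h and the replicate comparison) depended on the scaling. The median of all probe sets lay at 0.12, −0.02, −0.17, 0.09, 0.02, −0.17, 0.15 and 0.00 in the fits as reported. Reversals of single genes were Ifitm1 at 1 h (−0.027 with centring), Stat2 (−0.32 to 3.73) and Isg20 (−0.69 to 3.18) in the interaction when 1 array was left out, and Eif2ak2 (0.42 with the mean of its probe sets) and Stat2 (−3.03 to 0.46 when 1 array was left out) in the replicate difference between constructs. The cause was not tested. The number of arrays limits the precision.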
